A study of Mus musculus with 4 samples.

Results

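Noncoding RNA genes embedded in the mouse Hox clusters were followed in stem cells of the small and large intestine: Hoxa11os, Hotairm1 and Hottip in the HoxA cluster on chromosome 6, and Hoxb3os and Hoxb5os in the HoxB cluster on chromosome 11. They were chosen by name and not by a measured value, and are 5 of the 55487 genes in the gene-level tables. The samples were Lgr5-positive stem cells sorted from intestinal crypts of Lgr5-EGFP-IRES-creERT2 mice, 6 to 12 weeks old and with no treatment named. Their Lgr5 locus carries a green reporter and an inducible Cre. Small-intestinal stem cells (SISC, 2 libraries) came from pieces near the pylorus and near the cecum and were gated as reporter-positive and CD24-negative. Large-intestinal stem cells (LISC, 2 libraries) came from cecum to rectum and were gated on the reporter, and no CD24 gate is named for them. Libraries were made after selection for polyadenylated RNA, with a kit that marks the strand. How many animals gave each library is not stated. Uty, a Y-linked gene, had 0 counts in SISC replicate 1 and 454 in SISC replicate 2, so these 2 did not come from the same set of animals. Tests here speak only for the spread between these libraries, which for LISC may be technical.

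Hox genes encode homeodomain transcription factors that give cells their position along the head-to-tail axis, and genes at the posterior end of a cluster are typically used in posterior tissue such as the hindgut. Between the coding genes, and often on the opposite strand, the clusters carry long noncoding RNA genes. Some of these RNAs are known to bind chromatin complexes: Hottip, made at the posterior tip of HoxA, is known for recruiting the WDR5-MLL histone methyltransferase to nearby HoxA genes. Hotairm1, made at the anterior end of HoxA, is best known from myeloid and neuronal differentiation. Hoxa11os runs antisense to Hoxa11 and is best known from the developing limb, where the pair is transcribed in complementary domains.

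The positions below are from the GENCODE vM21 annotation of GRCm38. Hoxa11os (ENSMUSG00000086427, a processed transcript with 6 isoforms) lies on the plus strand at chr6:52244393-52249799, and 800 of its 3073 exonic bases (26.0%) are opposite exons of Hoxa11. Hotairm1 (ENSMUSG00000087658, antisense, 3 isoforms) lies at chr6:52156902-52162119 on the plus strand. Hottip (ENSMUSG00000055408, a lincRNA with 2 isoforms) lies at chr6:52262775-52267603 on the plus strand and shares no exonic base with a coding gene. Its start is 1895 bases from that of Hoxa13, and the pair point away from each other. Hoxb3os (ENSMUSG00000084844, antisense, 2 isoforms) lies at chr11:96343072-96354691 on the minus strand, and 3203 of its 4201 exonic bases (76.2%) are opposite exons, 2250 of them of Hoxb3 and 953 of Hoxb2. Hoxb5os (ENSMUSG00000085645, antisense, 2 isoforms) lies at chr11:96291024-96306910 on the minus strand and spans Hoxb6, but only 100 of its 696 exonic bases (14.4%) are opposite an exon, that of Hoxb5. The set therefore runs from a gene that is mostly a mirror of coding exons to one that is clear of them, as drawn in the map of exons.

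**Figure D1:**
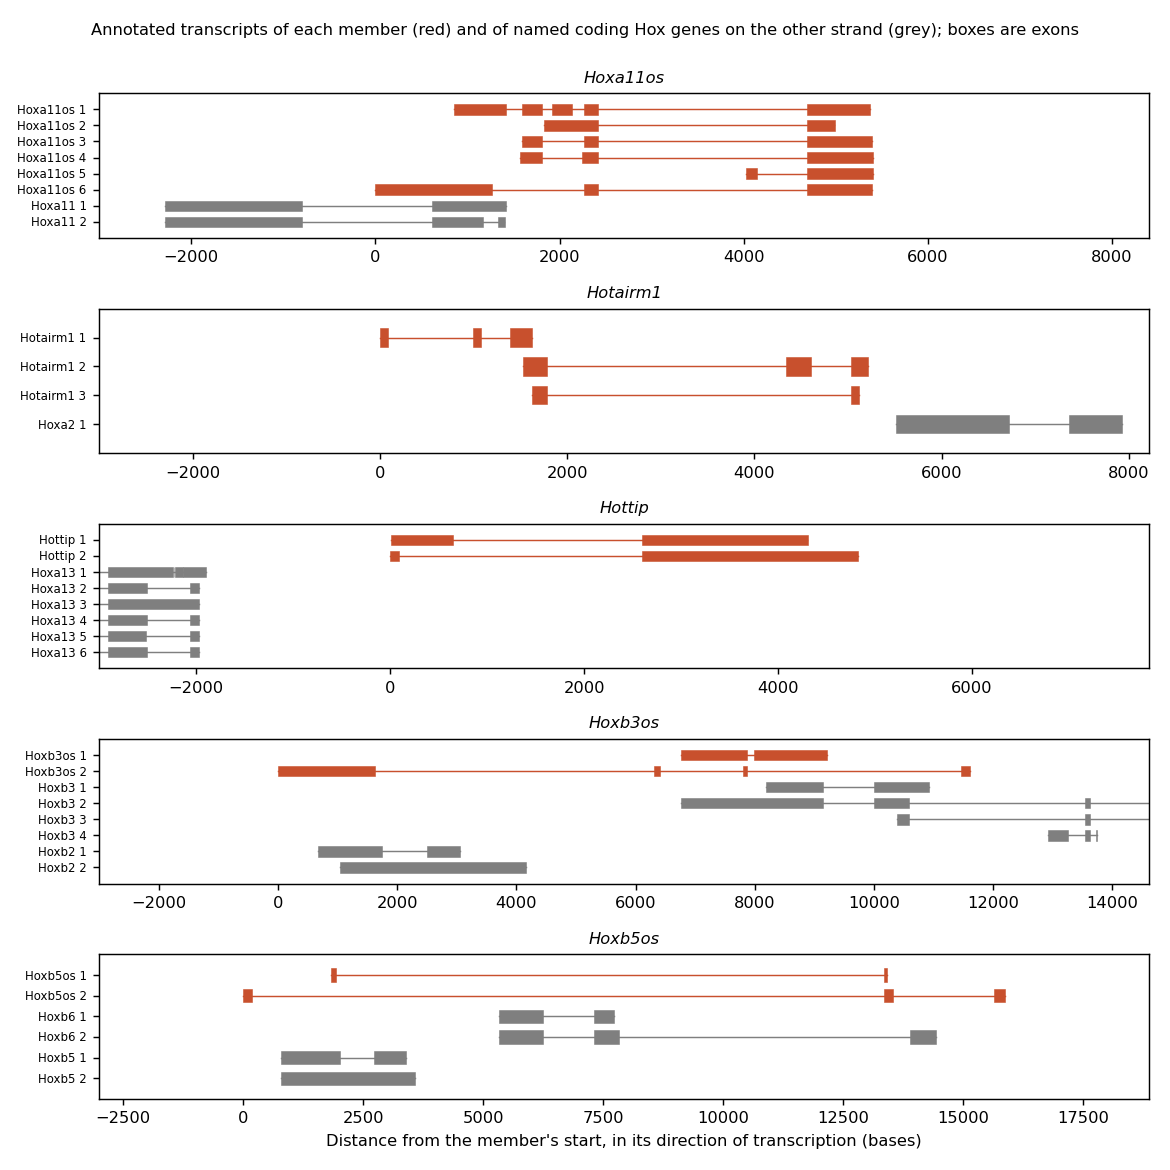
Exons (boxes) of each annotated transcript of the 5 noncoding genes (red) and of the named coding Hox genes on the other strand (grey), against distance in bases from the noncoding gene's start in its direction of transcription. Hoxb3os lies opposite exons of Hoxb3 and Hoxb2 over 76.2% of its exonic bases, whereas no Hottip exon meets a coding exon.

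RefSeq start windows on GRCm38.p6 were given for 3 of the 5 genes, Hoxa11os, Hottip and Hoxb3os. They are shown because they differ in what they lie on: the first and last are also coding sequence of a neighbour, and the Hottip window is not. Each runs 5′ to 3′ on the noncoding gene's own strand, and capitals mark the 50 bases from the transcription start on. The window of Hoxa11os is chr6:52244993-52245292 (plus strand), that of Hottip chr6:52262525-52262824 (plus strand), and the part of the Hoxb3os window shown is chr11:96353345-96353626 (minus strand).
Hoxa11os: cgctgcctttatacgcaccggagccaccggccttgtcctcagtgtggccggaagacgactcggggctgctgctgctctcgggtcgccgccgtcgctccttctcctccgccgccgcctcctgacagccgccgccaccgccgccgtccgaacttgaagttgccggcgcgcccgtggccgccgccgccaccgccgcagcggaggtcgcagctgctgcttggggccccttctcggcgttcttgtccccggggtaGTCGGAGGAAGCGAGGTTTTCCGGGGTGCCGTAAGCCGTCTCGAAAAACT
Hottip: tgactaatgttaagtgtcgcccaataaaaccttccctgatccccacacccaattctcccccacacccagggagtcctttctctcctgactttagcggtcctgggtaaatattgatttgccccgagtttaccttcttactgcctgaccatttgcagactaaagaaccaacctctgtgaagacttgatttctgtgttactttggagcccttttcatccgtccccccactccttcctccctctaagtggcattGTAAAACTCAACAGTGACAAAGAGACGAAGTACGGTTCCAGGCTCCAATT
Hoxb3os: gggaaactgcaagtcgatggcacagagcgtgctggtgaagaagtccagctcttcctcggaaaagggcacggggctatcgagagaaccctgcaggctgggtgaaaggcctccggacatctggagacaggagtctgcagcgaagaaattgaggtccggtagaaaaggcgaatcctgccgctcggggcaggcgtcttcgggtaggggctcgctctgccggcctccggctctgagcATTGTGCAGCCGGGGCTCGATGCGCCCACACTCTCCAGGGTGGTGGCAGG
Of the 300 bases shown for Hoxa11os, 282 are opposite the coding sequence of Hoxa11, and all 282 bases shown for Hoxb3os are opposite that of Hoxb2. The RefSeq start of Hoxb3os lies inside the first exon that GENCODE annotates, that of ENSMUST00000147410. RSEM gave 75.5% to 100% of Hoxb3os transcripts to the other isoform, ENSMUST00000131275. That isoform starts at chr11:96347923, outside the window. Over the whole 300-base windows, Hoxa11os held 41 CG dinucleotides at 70.3% G+C, Hoxb3os 19 at 60.7% and Hottip 6 at 47.7%. The median over 32817 RefSeq windows of that length was 7 CG dinucleotides (95th percentile 37) and 52.7% G+C, so that Hoxa11os was above that percentile in CG and Hottip close to the median. CATAAA (the core of the CDX motif), TGATNNAT (a HOX-PBX core) and TAATTA (a homeodomain core), searched on both strands, had 0 matches in the 3 windows. These letters occur in 11.9%, 8.86% and 5.30% of all windows, and their absence from these windows says nothing about the factors.

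Libraries held 12795400 to 27227700 expected counts. Nuclear rRNA took 24.1% and 28.5% of them in replicate 1 of SISC and LISC but 0.0917% and 0.0997% in replicate 2, so levels between libraries are given as CPM, counts per TMM-scaled library size. TPM, which is scaled by transcript length, is used to rank genes and take ratios within a library, and also in an alternative fit of the groups with limma. A count of 0 in SISC allows up to 3 counts per library, or 0.156 CPM on average, for counting error only. Summed epithelial markers (6 genes) ran from 4539 to 6356 CPM and stem cell markers (4 genes, Lgr5 among them) from 336 to 930 CPM, so the labelled cell type was present in all 4 libraries.

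All 5 noncoding genes had higher CPM in both LISC libraries than in either SISC library, and 4 of them (Hoxa11os, Hotairm1, Hottip and Hoxb5os) had 0 counts in both SISC libraries. Among the 24103 genes with any count, 17.4% had both LISC libraries above both SISC libraries, and 1.98% had 0 counts in SISC with a count in each LISC library. edgeR's quasi-likelihood test with Benjamini-Hochberg adjustment kept 3 of the 5 after its filter on low counts and called Hoxa11os alone at an adjusted p below 0.05. Of 14165 genes tested, 1.45% were called higher in LISC. An unadjusted p below 0.05 was reached by 2 of the 3, Hoxa11os and Hoxb5os, against 8.73% of genes tested, and 21.9% of genes tested had non-overlapping groups in that direction. A gene absent from SISC could pass the filter only through its LISC counts, so these shares are descriptions. In bulk RNA, fewer cells using a gene and less RNA per cell cannot be told apart.

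**Figure D2:**
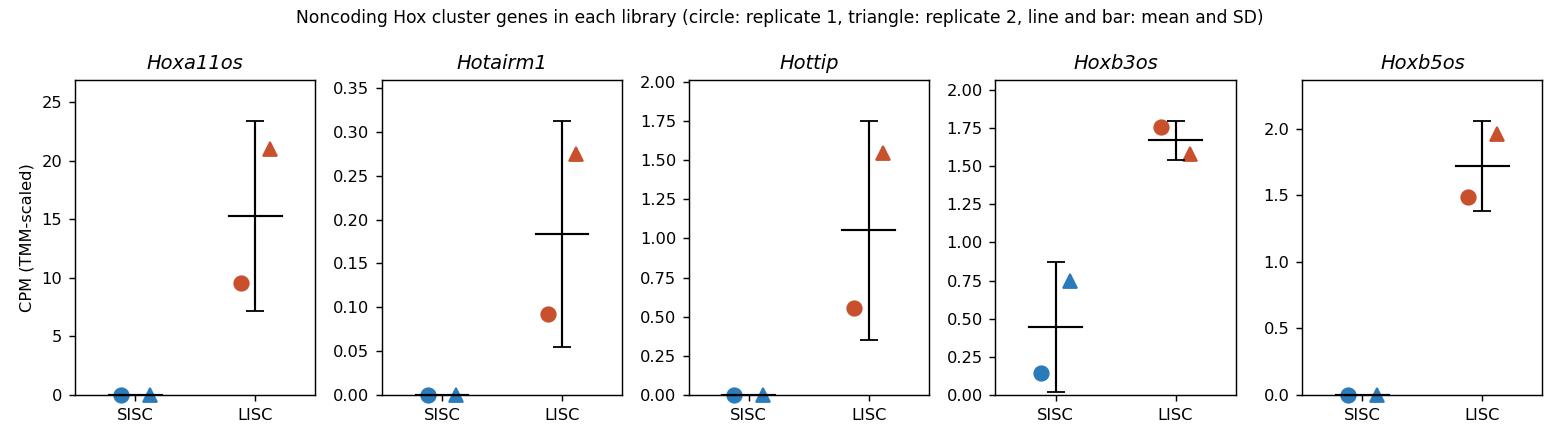
TMM-scaled CPM of each noncoding gene in the 2 SISC (blue) and 2 LISC (orange) libraries, each panel on its own linear axis from 0; circles are replicate 1, triangles replicate 2, and lines with bars the mean and SD. SISC points are at 0 in every panel except that of Hoxb3os, and the LISC points of Hoxa11os lie at 9.54 and 21.0 CPM.

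Hoxa11os, the antisense partner of Hoxa11, was the most abundant of the 5 in LISC. Both SISC libraries had 0 counts, against 103.35 and 612 counts for LISC replicates 1 and 2, or 9.54 and 21.0 CPM (15.3 ± 8.13, SD, n = 2). The LISC libraries differed from each other by 2.20-fold, and neither came near the SISC libraries. Hoxa11os was at least 98.0-fold higher in LISC, taking 3 counts per SISC library as the bound. This bound was 61.2 without LISC replicate 2, 135 without LISC replicate 1, 70.0 without SISC replicate 2 and 163 without SISC replicate 1. edgeR's fitted log2 difference, which depends on its prior count where a group is at 0, was 11.36 ± 1.06 (SE; adjusted p = 0.0358). The gene was called in each of 11 alternative settings, with adjusted p-values from 1.68e-30 to 0.0394. RSEM's posterior SD of the LISC counts was 1.13 and 1.64. Exonic bases of Hoxa11os are shared with 5 small annotated RNA genes on the same strand, and that spread is small beside its counts.

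Hoxb5os, antisense to Hoxb5 and spanning Hoxb6, followed at a lower level. It had 0 and 0 counts in SISC and 16 and 57 in LISC, or 1.48 and 1.96 CPM (1.72 ± 0.337, SD, n = 2). These LISC values were close to each other, and the gene was at least 11.0-fold higher in LISC (18.4 without SISC replicate 1, and 7.88 to 12.6 without one of the other libraries). The edgeR log2 difference of 8.21 ± 1.30 had an unadjusted p of 0.00334 but did not pass after adjustment (adjusted p = 0.0864). DESeq2 called it (log2 7.59, adjusted p = 0.00124), and over 10 alternatives the adjusted p ran from 0.000134 to 0.382. In both LISC libraries the deposited gene length equalled that of the 596-base isoform (ENSMUST00000150698), to which RSEM thus gave 100% of the Hoxb5os transcripts. The other isoform has 158 bases. The median gap between length and effective length was 236 and 178 bases in LISC replicates 1 and 2. RSEM could thus hardly give reads to the 158-base isoform, and the share does not show which isoform was used. No exonic base of the 596-base isoform is opposite a coding exon.

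Hoxb3os, the mirror of Hoxb3 and Hoxb2 exons, was the only one of the 5 read in SISC. Its counts were 2 and 24 in SISC and 19 and 46 in LISC, which is 0.146 and 0.750 CPM against 1.76 and 1.58 CPM. LISC replicate 2 was at 0.898 times the level of LISC replicate 1, whereas SISC replicate 2 was 5.15-fold above SISC replicate 1. The means, 0.448 ± 0.427 and 1.67 ± 0.127 CPM (SD, n = 2 each), differed 3.73-fold. The groups did not overlap, but the log2 difference of 1.81 ± 0.93 did not pass edgeR's test (adjusted p = 0.561), and it was 3.60 within replicate 1 and 1.08 within replicate 2. The means differed 2.23-fold without SISC replicate 1 and 11.5-fold without SISC replicate 2. The log2 difference was then 1.14 and 3.44, neither of them called by edgeR (adjusted p = 0.739 and 0.336). Over the 10 alternatives no setting called Hoxb3os, with adjusted p-values from 0.218 to 1.

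Hottip, from the posterior tip of HoxA, had 0 and 0 counts in SISC and 6 and 45 in LISC, or 0.556 and 1.55 CPM (1.05 ± 0.701, SD, n = 2). Their mean exceeds the limit that 0 counts in SISC allow, and Hottip was thus at least 6.74-fold higher. The bound rests on few counts: it was 3.56 without LISC replicate 2, 9.92 without LISC replicate 1, 4.82 without SISC replicate 2 and 11.2 without SISC replicate 1. It did not pass edgeR's filter on low counts and was not tested in the main comparison. Hottip also shares exonic bases with 3 small RNA genes on its strand, and RSEM's posterior SD of its LISC counts was 0 and 0.49. Where a setting kept it, the call varied. Without a filter edgeR called it (log2 7.52, adjusted p = 0.00413), as did DESeq2 (log2 6.88, adjusted p = 0.0218). Over all 6 alternatives that kept Hottip, adjusted p-values ran from 0.00413 to 0.302, and those 2 settings were the only ones to call it. These 2 settings called 3 of the 5 noncoding genes each (Hoxa11os, Hottip and Hoxb5os), against 3.92% of all genes called higher in LISC without a filter and 4.64% by DESeq2.

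Hotairm1, from the anterior end of HoxA, was the scarcest by CPM, with 0 and 0 counts in SISC and 1 and 8 in LISC, or 0.0927 and 0.275 CPM. LISC replicate 1 is under the 3-count limit, so no fold is given and a difference was not detectable at this depth in that library. Its exons too hold bases of 3 small RNA genes, with a posterior SD of 0 in both LISC libraries. The gene did not pass the filter either. Without one, edgeR gave an adjusted p of 0.662, and DESeq2 gave no adjusted p.

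Length-scaled levels put the 5 genes in order within LISC. Hoxa11os had 6.41 and 30.77 TPM in LISC replicates 1 and 2, and Hoxb5os 2.55 and 5.98 TPM. Hoxb3os had 0.55 and 0.95 TPM, Hotairm1 0.12 and 1.11 TPM, and Hottip 0.17 and 0.91 TPM. Hoxa11os exceeded Hoxb5os, and Hoxb5os the other 3, within each LISC library. Hoxb3os, Hotairm1 and Hottip stood in a different order in the 2 libraries. In SISC only Hoxb3os had a TPM above 0, at 0.05 and 0.42.

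Hoxa11os, Hottip, Hoxb3os and Hoxb5os were then set beside the coding genes they overlap or flank, as ratios of TPM within a library. With 2 libraries a group no exact test of these ratios can reach 0.05, and none was run. Hoxa11os was above Hoxa11 in both LISC libraries, by 5.57-fold and 10.6-fold (mean log2 ratio 2.94 ± 0.66, SD, n = 2), and held 73.1% and 81.5% of the counts of the pair. Hoxa11, a posterior homeodomain gene, was itself at 0 counts in SISC against 3.52 and 4.78 CPM in LISC. It was thus at least 26.6-fold higher (edgeR log2 9.48 ± 1.09, adjusted p = 0.0485). This bound was 44.3 without SISC replicate 1 and 19.0 without SISC replicate 2. It was 30.6 without LISC replicate 1 and 22.6 without LISC replicate 2. Hoxa2, which flanks Hotairm1 on its posterior side, had 0 and 1 counts in SISC and 6.58 and 3.64 CPM in LISC (edgeR adjusted p = 0.0403).

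Hottip, Hoxb5os and Hoxb3os were below their coding neighbours in LISC. Hottip was at 0.183 and 0.311 times the TPM of Hoxa13 (mean log2 ratio −2.03 ± 0.50, SD, n = 2), the most posterior HoxA gene. Hoxa13 itself had 0 counts in SISC and 2.04 and 5.09 CPM in LISC (edgeR adjusted p = 0.0753). Hoxb5os was below Hoxb5 (mean log2 ratio −1.53 ± 0.69) and further below Hoxb6 (−3.55 ± 0.23). Both neighbours were read in SISC, where Hoxb5os was not: Hoxb5 had 1.24 and 0.187 CPM and Hoxb6 1.96 and 1.12 CPM. In LISC Hoxb5 was at 30.9 and 18.6 CPM (edgeR adjusted p = 0.0685) and Hoxb6 at 77.9 and 73.2 CPM (adjusted p = 0.0167).

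Hoxb3os and Hoxb3 did not keep a constant ratio across the groups. Hoxb3, an anterior to middle gene of the cluster, had 1.02 and 1.25 CPM in SISC against 32.4 and 23.8 CPM in LISC, 24.8-fold higher (edgeR log2 4.61 ± 0.34, adjusted p = 0.0168). The log2 TPM ratio of Hoxb3os to Hoxb3 was −2.22 and −0.22 in SISC and −3.79 and −3.45 in LISC. Hoxb3os thus held 12.5% and 37.5% of the counts of the pair in SISC and 5.15% and 6.22% in LISC. Hoxb2 had 14 and 30 counts in SISC and 72 and 291 in LISC (edgeR adjusted p = 0.0546). Against Hoxb2 the log2 ratio in LISC was −2.73 ± 0.57 (SD, n = 2). By library it was −2.97 and −0.70 in SISC and −2.33 and −3.14 in LISC, so the groups overlapped. The SISC ratios to both neighbours rest on 2 and 24 counts of Hoxb3os. No test was made of the difference between the groups' ratios.

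Antisense pairs can be told apart only if the counting used the strand, and no source used here gives the strand setting. Hoxb3os bears on this most, since its 2315-base isoform (ENSMUST00000131275), 97.2% of which is opposite Hoxb3 exons, held 100% and 85.3% of Hoxb3os transcripts in SISC replicates 1 and 2, and 75.5% and 94.8% in those of LISC. Reads that fit more than 1 gene give an RSEM posterior SD above 0. It was 0 for Hoxb3os, Hoxb3 and Hoxb2 in all 4 libraries. Among genes with at least 10 counts that lie at least 95% opposite exons of another gene with at least 10 counts, it was 0 for 5 of 7, 10 of 13, 8 of 10 and 11 of 15 in the 4 libraries in the same order, beside 80.8% to 86.4% of all genes with at least 10 counts. The part that reads of the wrong strand may have in Hoxb3os was not tested.

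Read against its cluster, the pattern was shared with the coding genes. Of 39 coding Hox genes, 22 were tested. All 22 had a fitted value higher in LISC, as did 6795 of all 14165 genes tested. Called by edgeR were 11 (7 in HoxA, 3 in HoxB and 1 in HoxD), against 1.45% of all genes tested. Of the 22, 5 had 0 counts in SISC and could pass the filter only through LISC, which fixes their sign. Genes with few SISC counts likewise passed through LISC, among them Hoxa2 (0 and 1), Hoxa9 (0 and 13) and Hoxa10 (2 and 4). The numbers of genes called and of genes fitted higher in LISC are therefore descriptions. The median log2 difference of the 22 was 6.52, or 5.37 with the 5 that are at 0 in SISC put at their bound, beside −0.02 over all genes tested. No HoxC gene passed the filter. Called genes included Hoxa9, a posterior homeodomain gene at 0 and 0.406 CPM in SISC against 43.6 and 47.5 CPM in LISC, and Hoxa10 at 0.146 and 0.125 CPM against 21.9 and 32.6 CPM. The fitted 1.81 of Hoxb3os was lower than that of each of the 22 coding genes.

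**Figure D3:**
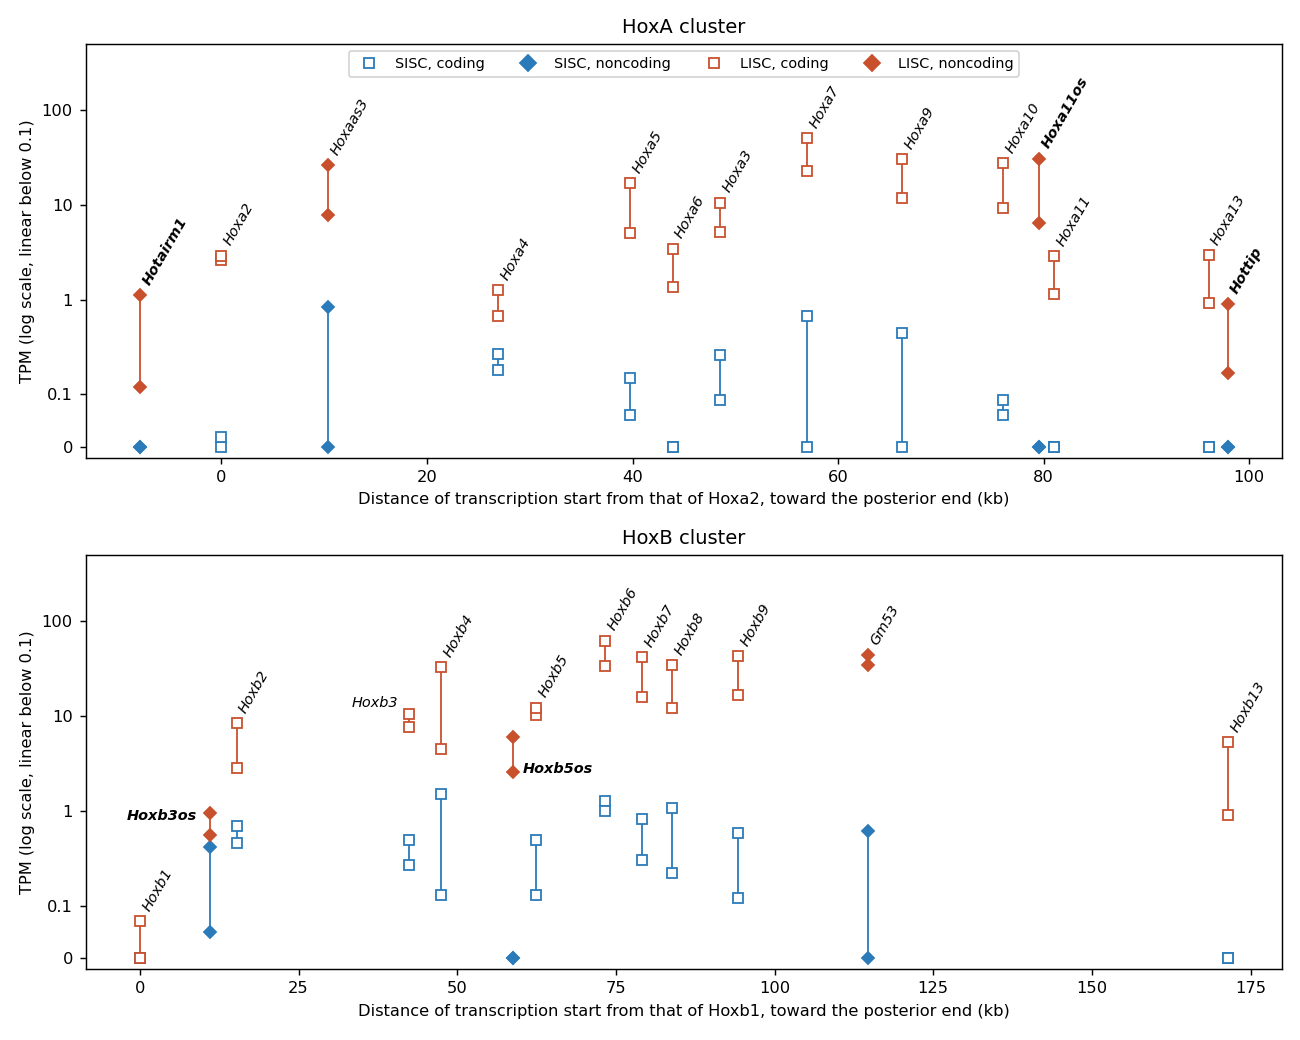
TPM (log scale, linear below 0.1) of the coding Hox genes shown (open squares) and noncoding genes (filled diamonds, the 5 followed here in bold) by distance in kb of their annotated start from that of Hoxa2 or Hoxb1, in SISC (blue) and LISC (orange); a line joins the 2 libraries of a group. Hoxa11os reaches 30.77 TPM in a stretch where Hoxa11 reaches 2.89, and Hoxb3os is the one followed noncoding gene with SISC points above 0.

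Another 51 noncoding genes lie in the 4 clusters or within 50 kb of their outer coding genes, and 14 of them had a count. edgeR tested 3 and called 1, Hoxaas3 (antisense, HoxA), which had 0 and 0.281 CPM in SISC against 12.1 and 20.5 CPM in LISC (log2 6.49 ± 0.95, adjusted p = 0.0494). Its level in LISC, 7.84 and 26.24 TPM, was next to that of Hoxa11os. The call lies at the threshold and was lost with median-ratio factors, with rRNA genes left out before scaling, and without LISC replicate 2. Gm53, a lincRNA upstream of Hoxb9 that was picked out after its values were seen, had 1.53 and 0 CPM in SISC against 73.6 and 39.7 CPM in LISC (edgeR log2 6.49 ± 1.53, adjusted p = 0.138). The third gene tested, Gm11539, is a processed pseudogene in HoxB with fractional counts of 2.25 and 17.67 in SISC and 1.01 and 16.44 in LISC (edgeR log2 −0.09 ± 1.19, adjusted p = 0.9995). Its counts are uncertain, since reads of a pseudogene may be shared with its parent gene. Hotair, the HoxC RNA known for binding Polycomb proteins, had 0 counts in all 4 libraries, and so did the 7 annotated microRNA precursors, which a library of polyadenylated RNA is not made to capture.

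**Figure D4:**
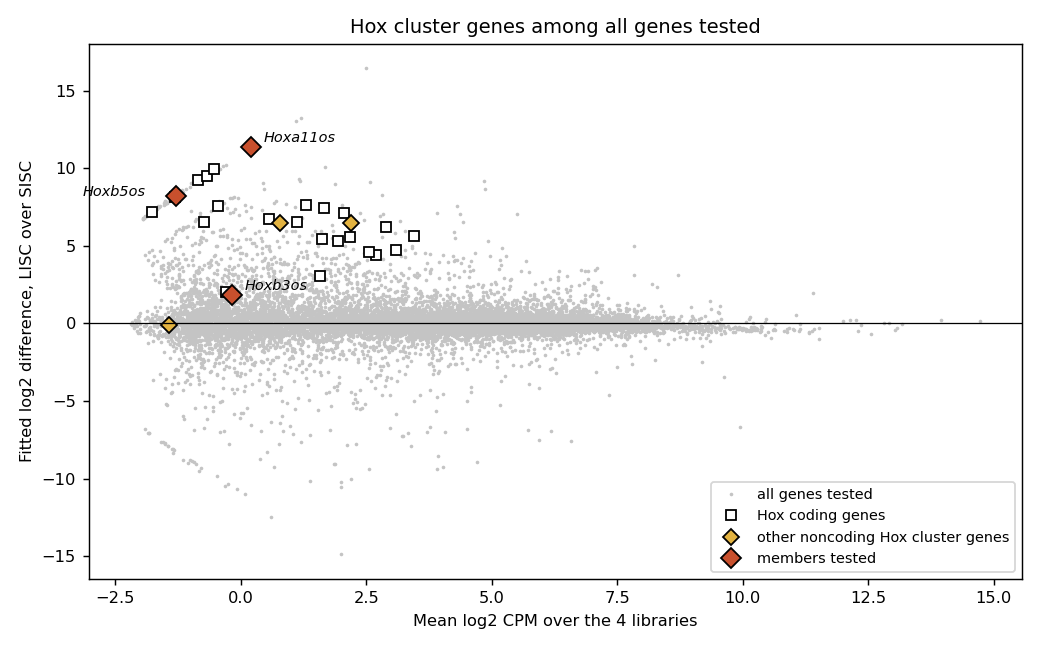
Fitted log2 difference of LISC over SISC against mean log2 CPM over the 4 libraries for all 14165 genes tested (grey), with coding Hox genes as open squares, other noncoding Hox cluster genes as yellow diamonds and the 3 followed noncoding genes that passed the filter as red diamonds. Hoxa11os (11.36) and Hoxb5os (8.21) had 0 counts in SISC, so their heights depend on edgeR's prior count. Their bounds were at least 98.0-fold and 11.0-fold, and their place among the coding genes is not read from the plot. Hoxb3os (1.81) lies nearer to 0.

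Genes of chromatin complexes that are tied to Hottip or Hotairm1 in general knowledge were not called. Of 18 such genes (H3K4 methyltransferase subunits, Polycomb subunits, H3K27 demethylases, Ctcf and Rad21), 18 were tested and 0 were called by edgeR, with 0 at an unadjusted p below 0.05 and 0 called by DESeq2 or limma. Their median log2 difference was −0.24 beside −0.02 over all genes. Of the 18, 15 were below 0 and 3 above, beside 7370 and 6795 of all 14165 genes tested. In simulated counts edgeR recovered 0 of 49 genes changed 2-fold and 13 of 50 changed 4-fold. The simulation gave all genes a common dispersion and drew the changed genes from all that passed the filter. Its recovery may thus differ from that for these 18 genes, and differences of that size could go uncalled here. Wdr5, which encodes the subunit known to bind Hottip, was at 68.6 and 56.9 CPM in SISC against 54.5 and 45.5 CPM in LISC (log2 −0.33 ± 0.26, edgeR adjusted p = 0.811). Kmt2a, the MLL methyltransferase gene, had a log2 difference of −0.28 ± 0.77 (adjusted p = 0.996). Without SISC replicate 2, Uty was called higher in LISC (edgeR adjusted p = 0.0160), a Y-linked gene with 0 counts in SISC replicate 1.

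For each noncoding gene that was tested, the 3 genes nearest to it in profile were found by Euclidean distance between mean-centred log2 CPM over the 4 libraries, with no test. For a gene at 0 in SISC, the distance depends on the prior count and on its level in LISC. Nearest to Hoxa11os were Papss2, which makes the sulfate donor PAPS (distance 0.470), the homeodomain gene Hoxa10 (0.557) and the fatty acid hydroxylase gene Fa2h (0.593). Papss2 had 65 and 110 counts in SISC, where Hoxa11os had 0. Its own partner Hoxa11 ranked 53rd at 1.83. Hoxa11 was also at 0 in SISC but lower in LISC, at 3.52 and 4.78 CPM against 9.54 and 21.0 CPM for Hoxa11os. Nearest to Hoxb5os were Hoxa6, a homeodomain gene of another cluster (0.0735), C1qtnf6 (0.137) and 9130227L01Rik (0.179), and its neighbours Hoxb6 and Hoxb5 ranked 275 and 509. Hoxa6 had 0 and 0 counts in SISC and 15 and 55 in LISC, almost those of Hoxb5os. Nearest to Hoxb3os were Bvht (0.224), Fyb2 (0.242) and Gm42685 (0.322), each with 1 count in SISC replicate 1. Hoxb2 and Hoxb3 ranked 1285 and 10303.

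Levels within LISC also varied between the libraries, in unlike ways. LISC replicate 2 exceeded replicate 1 in CPM by 2.20-fold for Hoxa11os, 2.78-fold for Hottip, 2.97-fold for Hotairm1 and 1.32-fold for Hoxb5os, and was at 0.898 times replicate 1 for Hoxb3os. The 3 HoxA genes were thus higher in replicate 2, beside 2.50-fold for Hoxa13 and 1.36-fold for Hoxa11. Among coding Hox genes with at least 10 counts in LISC replicate 1, this quotient ran from 0.554 for Hoxa2 to 3.61 for Hoxb4. Car1 and C1qa, of the absorptive and immune marker lists given below, were also higher in LISC replicate 2. Other immune markers differed: C1qb, C1qc and Adgre1 were at 0 in both LISC libraries. Between LISC replicates 1 and 2, Itgam went from 3.89 to 3.06 CPM and Ptprc from 1.30 to 4.78 CPM. The part of absorptive or immune cells in the differences between LISC libraries was not tested.

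Markers of other cells were read beside these results, since Hox genes are also used in gut mesenchyme. The 12 mesenchymal markers summed to 7.20 and 2.50 CPM in SISC against 5.47 and 6.91 CPM in LISC, with Lum and Des at 0 in all 4 libraries. Dcn and Acta2 were at 0 except for 5 counts each in LISC replicate 2. Vim, an intermediate filament gene, made 4.87 and 0.750 CPM of the SISC sums and 0.834 and 0.756 CPM of the LISC sums. The other 11 genes summed to 2.33 and 1.75 CPM against 4.63 and 6.15 CPM, most of it Pdgfrb, the pericyte and fibroblast receptor gene, at 2.18 and 1.56 CPM against 4.26 and 4.78 CPM (edgeR log2 1.28, adjusted p = 0.360). The part of mesenchymal cells in the LISC levels was not tested. Endothelial markers (4 genes) summed to at most 0.653 CPM in any library, and those of neurons and glia (5 genes) to 0.582 and 5.56 CPM in SISC against 1.11 and 3.51 CPM in LISC.

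Immune and differentiated epithelial markers stood at unlike levels in the groups. The 12 immune markers summed to 8.44 and 7.50 CPM in SISC against 13.6 and 41.4 CPM in LISC, of which C1qa, a complement gene, made 7.41 and 32.1 CPM, while C1qb, C1qc and the macrophage marker Adgre1 were at 0 in all 4 libraries. Ptprc, also tested, had 0.364 and 0.469 CPM in SISC against 1.30 and 4.78 CPM in LISC (edgeR adjusted p = 0.235). Itgam and Cd68 were lower in both LISC libraries by value. Absorptive cell markers (5 genes) summed to 54.1 and 25.8 CPM in SISC against 128 and 928 CPM in LISC. Car1, a carbonic anhydrase gene of the colon, alone made 126 and 920 CPM of the LISC sums and had 0 counts in SISC (edgeR adjusted p = 0.0603). The other 4 summed to 54.1 and 25.8 CPM against 1.95 and 8.01 CPM. Of these, Aqp8 had 0 counts in SISC against 0.649 and 4.33 CPM in LISC (edgeR adjusted p = 0.158). Alpi, Fabp1 and Sis, genes of small-intestinal enterocytes, were each lower in both LISC libraries, and Sis was called higher in SISC, at 40.2 and 13.7 CPM against 0.834 and 0.997 CPM (edgeR adjusted p = 0.0431). Tuft cell markers (3 genes) summed to 14.8 and 3.56 CPM against 54.6 and 84.0 CPM, and goblet cell markers (5 genes) to 1755 and 275 CPM against 3218 and 5853 CPM. Paneth cell markers (4 genes) were higher in SISC by value, at 7770 and 1102 CPM in SISC against 49.4 and 11.9 CPM in LISC, and enteroendocrine markers (3 genes) summed to 142 and 24.3 CPM against 42.7 and 40.8 CPM. The part of these cells in the levels of the 5 noncoding genes was not tested.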

How the data were processed

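RNA of 4 libraries, 2 SISC and 2 LISC, was measured after poly(A) selection, and sample titles gave the groups. Per the submitters' processing notes, STAR 2.7.2b, RSEM 1.2.31 and the build GRCm38 (mm10) were used. The annotation release, strand setting and trimming are not given in sources used here. Gene-level expected counts from RSEM were deposited by the authors, with a read of several possible genes divided among them, together with a posterior SD of each count, and TPM scaled by effective length. The deposited TPM includes rRNA, whose share differs between libraries.

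Gene IDs were matched to GENCODE vM21 (55227 of 55487 had a symbol, 260 had none). Rounded expected counts went into edgeR 4.0.16 under R 4.3.3 (quasi-likelihood, group only, TMM, filterByExpr with a minimum count of 10), adjusted over 14165 genes by Benjamini-Hochberg at 0.05. SEs are the log2 difference over the square root of F. TPM ratios took a pseudocount of 0.01 and distances a prior count of 2. Alternatives were DESeq2 1.42.0, median-ratio factors, rRNA genes left out, no filter, a minimum count of 50, limma 3.58.1 (trend on log2(TPM + 0.1), at least 0.5 TPM in 2 libraries), a replicate block, other pseudocounts, and each replicate left out. The fits were tested on simulated counts.

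Named genes were the 5 members, their overlapping or flanking coding Hox genes, the 3 nearest tested genes in profile of each tested member, and other noncoding Hox or partner genes that were called. Hoxa9, Hoxb4, Gm53, Gm11539, Hotair, Uty, Wdr5, Kmt2a and marker genes given with values were named after these were seen. Members, lists and this rule were chosen with earlier results of these data known. A coding Hox gene is not reported here by name.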

Additional observations from a re-analysis of the deposited data

How the results depend on the processing

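No direction of a tested noncoding gene turned in any setting. Hoxa11os and Hoxb5os had 0 counts in both SISC libraries, so their direction could not turn and only that of Hoxb3os could. Hoxa11os was called in all 11 alternatives (log2 7.15 to 12.04, and 10.50 to 12.04 when a replicate was left out) and Hoxb3os in none of 10 (1.14 to 3.44 on leaving out a replicate). Hoxb5os became called with DESeq2 (log2 7.59), with no filter (8.20), with the replicate block (8.28) and with limma on TPM (5.33), but not on leaving out a replicate (7.82 to 8.61). A minimum count of 50 left Hoxb3os and Hoxb5os untested.

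Noncoding genes called, 1 of the 5 in the main comparison, were 3 with DESeq2, 3 with no filter, 2 with the block and 2 with limma on TPM, against 7.17% of all genes with the block and 1.53% with limma (1 to 1 on leaving out a replicate). Genes called higher in LISC were 206, against 769 with DESeq2, 942 with no filter and 1015 with the block, and genes called higher in SISC were 105, against 384, 465 and 524 (166 to 338 and 79 to 149 on leaving out a replicate, the highest for LISC being without SISC replicate 1). Coding Hox genes called, 11, were 21 with DESeq2 and with no filter and 20 with the block (12 to 17 on leaving out a replicate, 17 without SISC replicate 1). Other noncoding Hox cluster genes called, 1, were 0 with median-ratio factors and with rRNA genes left out, and 2 (Hoxaas3 and Gm53) with no filter, with the block and with limma (0 to 2 on leaving out a replicate: 0 without LISC replicate 2, 2 without either SISC replicate). Partner genes called ranged from 0 to 1 on leaving out a replicate. Where a group was left with 1 library, its spread was assumed to be that of the other group. The cause of these differences was not tested.

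Number 1 does not mark 1 shared set of animals, since Uty had 0 counts in SISC replicate 1 and 149 in LISC replicate 1, and a shared day is not stated. Deviations from the group means correlated at 0.648 between same-numbered libraries, a single value for both numbers when there are 2 pairs. Nuclear rRNA also followed the number, at 24.1% and 28.5% in replicate 1 of SISC and LISC against 0.0917% and 0.0997% in replicate 2. Whether same-numbered libraries were prepared together is not stated and was not tested. The main comparison takes no account of the number, and the block is given as an alternative.

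With expected counts in place of TPM, which drops the scaling by length, mean log2 ratios in LISC became 1.79 for Hoxa11os to Hoxa11, −4.06 for Hoxb3os to Hoxb3, −3.81 for Hoxb5os to Hoxb5 and −5.47 for Hoxb5os to Hoxb6. On leaving out a LISC replicate the 6 ratios kept their sign, with Hoxa11os to Hoxa11 at 2.47 to 3.41 and Hottip to Hoxa13 at −2.38 to −1.68. Depth limits Hotairm1 most, with 1 and 8 counts in LISC.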
